A study of Homo sapiens with 17 samples.

Results

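The genes described here are 10 secreted chemokines of the CXC and CC classes (CXCL1, CXCL2, CXCL3, CXCL5, CXCL6, CXCL8, CXCL12, CXCL16, CCL2 and CCL7), picked by gene symbol out of 41040 named genes in the count files. All 10 were listed and all 10 passed the filter on low counts. They were followed by bulk RNA-seq in IMR-90 cells, a diploid fibroblast line from human fetal lung, in 17 libraries. Untreated cells made up week 0 (day 0, n = 5 libraries). The other cultures, mostly confluent by then, were exposed for 48 h to 20 µM etoposide, a topoisomerase II poison used here to bring on senescence, then kept without the drug until week 1 (day 7, n = 6) or week 4 (day 28, n = 6). No untreated culture of week 1 or week 4 was among the libraries, so drug and time in culture cannot be told apart. The labels do not say whether replicates were separate cultures, and the p-values rest on a spread between libraries that may be technical.

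Chemokines are small secreted proteins that attract leukocytes through G protein-coupled receptors. CXCL1, CXCL2, CXCL3, CXCL5, CXCL6 and CXCL8 carry the glutamate-leucine-arginine (ELR) motif before their CXC cysteines and draw in neutrophils through CXCR1 and CXCR2. CCL2 and CCL7 recruit monocytes through CCR2, CXCL12 keeps haematopoietic and stromal cells in place through CXCR4, and CXCL16 is made as a membrane-anchored protein that proteases release as a ligand for CXCR6. Several of them belong to the senescence-associated secretory phenotype, the set of inflammatory and matrix proteins that senescent fibroblasts release, and the ELR genes are textbook targets of the transcription factor NF-kB.

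The 6 ELR genes lie together on chromosome 4 in the order CXCL8, CXCL6, CXCL1, CXCL5, CXCL3 and CXCL2, while CXCL12 is on chromosome 10 and CXCL16, CCL2 and CCL7 are on chromosome 17. Promoter windows (250 bases before to 50 bases after the annotated start, RefSeq, GRCh38.p14) were at hand for 8 of the members, not for CXCL16 and CCL2. They were searched on both strands for an NF-kB type motif (GGAATTTCC), an AP-1 type motif (TGANTCA) and a TATA box (TATAAA). The windows are shown because all 6 ELR genes held the NF-kB type motif, 69 to 91 bases before the start, against 0.461% of 35116 promoters of the same length. That percentage is for this exact string, not for NF-kB sites in general. Several of these promoters share longer identical runs, given below, so the 6 matches are not independent. Capitals mark motif matches, which did not overlap each other, and all stretches run 5′ to 3′ on the strand of the gene. For CXCL8 (chr4:73740419-73740558, plus strand) the AP-1 type motif, the NF-kB type motif and the TATA box come in this order. For the other ELR genes 40 bases around the NF-kB type motif are given, from CXCL6 (chr4:73836578-73836617, plus strand), CXCL1 (chr4:73869293-73869332, plus strand), CXCL5 (chr4:73998738-73998777, minus strand), CXCL3 (chr4:74038750-74038789, minus strand) and CXCL2 (chr4:74099256-74099295, minus strand). CCL7 (chr17:34270156-34270205, plus strand) held an AP-1 type motif and a TATA box.
CXCL8: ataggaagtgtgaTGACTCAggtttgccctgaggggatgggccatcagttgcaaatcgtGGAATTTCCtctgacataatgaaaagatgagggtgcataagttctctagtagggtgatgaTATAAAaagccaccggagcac
CXCL6: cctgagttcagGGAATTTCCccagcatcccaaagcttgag
CXCL1: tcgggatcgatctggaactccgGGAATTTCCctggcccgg
CXCL5: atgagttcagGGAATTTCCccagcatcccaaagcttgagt
CXCL3: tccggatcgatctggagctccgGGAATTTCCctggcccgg
CXCL2: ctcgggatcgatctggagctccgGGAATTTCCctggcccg
CCL7: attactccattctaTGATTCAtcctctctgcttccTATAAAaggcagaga

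The promoters of CXCL5 and CXCL6 shared an identical run of 45 bases, those of CXCL1 and CXCL2 one of 42 bases, and those of CXCL2 and CXCL3 one of 37 bases. An AP-1 type motif was present in 7.71% and a TATA box in 11.5% of all promoters searched. The CXCL12 window held none of the 3 motifs, which says only that these letters are not in that window. A match describes letters and was not tested as a site of binding.

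**Figure D1:**
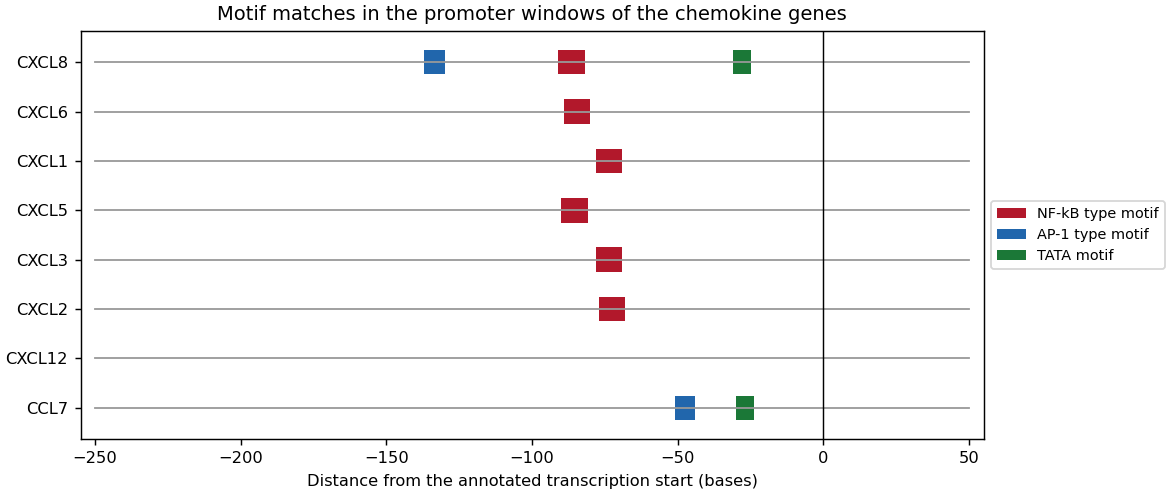
Motif matches in the promoter windows of 8 chemokine genes. The horizontal axis is the distance in bases from the annotated transcription start (vertical line), each row is a gene, and coloured blocks are NF-kB type (red), AP-1 type (blue) and TATA (green) matches. The 6 ELR genes share an NF-kB type match 69 to 91 bases before the start, and CXCL12 has no match.

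Library totals of counts in named genes were 77.2 to 103 M (M, 1e6 counts), and 16891 genes had enough counts to be tested. Ribosomal protein genes took 6.34% and 5.59% of the counts in week 0 replicates 1 and 4, while the remaining 15 libraries lay between 3.45% and 4.22%. For the members and the chemokine, receptor, protease and pathway genes under the naming rule below, values that moved markedly without both are given. Changes of the cell type markers without both were not examined. The 9 fibroblast markers were all expressed and summed to 28300 to 33900 CPM (counts scaled to library size, with TMM factors) at week 0, 41100 to 44000 CPM at week 1 and 55900 to 58900 CPM at week 4. Most of each sum came from COL1A1 and COL1A2. By edgeR (adjusted p under 0.05), COL1A1, COL1A2, THY1, LUM and FAP were called higher than week 0 at both times. PDGFRA was called lower at weeks 1 and 4 (log2 fold change -1.07 and -0.30). COL3A1, DCN and PDGFRB were called lower at week 1 (-0.41, -0.38 and -0.20), and COL3A1 and PDGFRB higher at week 4. At week 0, replicates 1 and 4 held 1800 and 1770 CPM of DCN and the others 1190 to 1320 CPM, against 1100 to 1150 CPM at week 1. None of the 9 leukocyte markers averaged 1 CPM or more. Their sum was 0.508 to 0.818 CPM at week 0, 0.789 to 1.04 CPM at week 1 and 0.514 to 1.33 CPM at week 4. The T cell gene CD3E and the B cell gene MS4A1 had a count of 0 in all week 0 libraries and 0 to 4 counts in the treated ones. PTPRC had 0 to 6 counts per library at week 0, 4 to 31 at week 1 and 0 to 13 at week 4. It was called higher than week 0 by edgeR at both treated times (log2 fold change 4.07 and 2.45, adjusted p = 2.9e-04 and 0.026). CD14 was called higher at week 4 (1.12, adjusted p = 0.0049), and CSF1R was not called at either time. The other leukocyte markers did not pass the filter on low counts. Endothelial markers summed to 75.9 to 93.5, 59.8 to 64.3 and 54.6 to 81.7 CPM at weeks 0, 1 and 4, nearly all from TEK. Among them, PECAM1 and VWF were called higher than week 0 at both times, and KDR and TEK lower. PECAM1 had 0 to 1 counts per library at week 0, 29 to 79 at week 1 and 4 to 24 at week 4. Smooth muscle and pericyte markers summed to 325 to 374, 419 to 434 and 384 to 410 CPM. The epithelial marker sum was 58.7 to 66.3 CPM at week 0, 243 to 282 CPM at week 1 and 201 to 227 CPM at week 4, from 3 of the 6 markers (KRT8, KRT18 and KRT19), while EPCAM, CDH1 and KRT5 did not reach 0.5 CPM in any library. KRT8, KRT18, KRT19 and CDH1 were called higher than week 0 at both times, and EPCAM was not called. The part of these markers in the chemokine differences was not tested.

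On the RPKM scale (CPM per kilobase of gene length), on which different genes can be set side by side, CXCL12 was the most abundant member in untreated cells and CCL2 in treated cells. At week 0, CXCL12 stood at 12.8 ± 0.849 RPKM, CCL2 at 9.80 ± 0.496, CXCL8 at 2.35 ± 0.831 and CXCL1 at 1.17 ± 0.354 RPKM (mean ± SD, n = 5). CXCL16 followed at 0.345 ± 0.0808 RPKM, and CXCL3, CXCL6, CXCL2, CXCL5 and CCL7 were at 0.252 to 0.102 RPKM. The ranges of CXCL8 and CXCL1 overlapped, as did those of each neighbouring pair from CXCL16 down. At week 1 the order was led by CCL2 at 29.3 ± 2.45 RPKM, then CXCL8 at 3.83 ± 0.727 and CXCL12 at 1.66 ± 0.134 RPKM (n = 6), with no overlap between these neighbours. The order of CXCL8 and CXCL12 there rests on the gene lengths used, 2588 and 6143 bases. In CPM, the 2 genes overlapped at week 1 (7.75 to 12.4 CPM for CXCL8 and 8.68 to 11.1 CPM for CXCL12). At week 4, CCL2 stood at 36.2 ± 5.23 RPKM, and CXCL12 at 7.61 ± 0.815 and CXCL8 at 6.35 ± 1.42 RPKM overlapped each other (n = 6).

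The summed level of all 10 members was 27.2 ± 1.02 RPKM at week 0, 37.2 ± 3.25 RPKM at week 1 and 54.3 ± 5.95 RPKM at week 4. In CPM, not divided by gene length, the sum was 102 to 110 at week 0, 75.3 to 93.9 at week 1 and 128 to 151 at week 4. The week 1 sum was thus above week 0 in RPKM and below it in CPM. CXCL12 supplied 47.0 ± 3.91% of the sum at week 0, 4.48 ± 0.439% at week 1 and 14.3 ± 3.05% at week 4. CCL2 supplied 36.0 ± 0.942%, 78.8 ± 1.71% and 66.5 ± 3.46% at weeks 0, 1 and 4. CXCL8 supplied 8.60 ± 2.94%, 10.3 ± 1.42% and 11.6 ± 1.90% at the same times. These shares are given as a description, with no test.

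**Figure D2:**
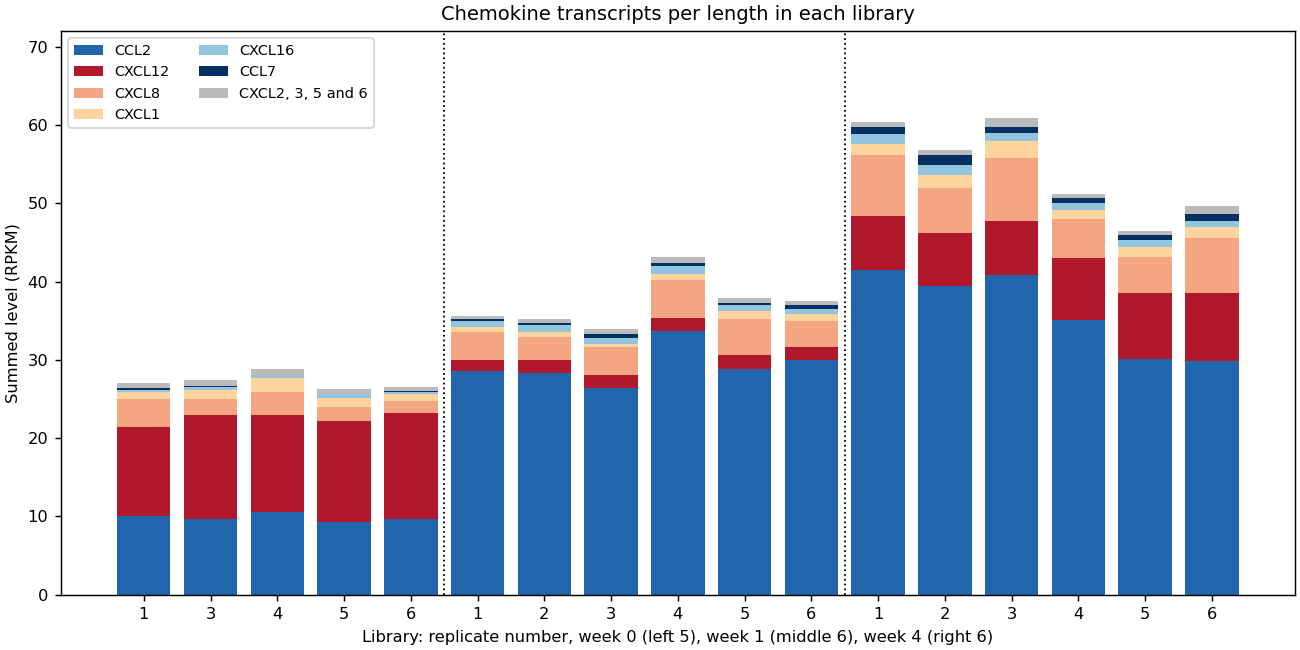
Summed transcript level of the 10 chemokines in each library (vertical axis, RPKM), split by gene in colours, with libraries grouped by week and numbered by replicate on the horizontal axis. CXCL12 (red) and CCL2 (blue) make up most of the week 0 bars, and CCL2 makes up over 60% of every week 1 and week 4 bar.

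Week 1 was set against week 0 to see which chemokine genes differed from untreated cells soon after etoposide. CCL2, CCL7, CXCL8 and CXCL16 rose, CXCL12, CXCL1 and CXCL6 fell, and CXCL2, CXCL3 and CXCL5 did not pass the test. Thus 4 of 10 members were called higher and 3 lower at an adjusted p under 0.05 (edgeR quasi-likelihood test, Benjamini-Hochberg over all tested genes). Among all 16891 genes the shares were 32.9% higher and 34.0% lower, so the members' counts stood near the background. The libraries of the groups did not overlap for 2 members that were higher and 1 that was lower, against 24.8% and 24.0% of all genes. Their median log2 fold change was 0.13, against -0.022 over all genes. In bulk RNA, a different share of expressing cells and a different amount of RNA per cell cannot be told apart.

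Week 4 was set against week 0 for the later state of treated cells. CCL2, CCL7, CXCL8 and CXCL16 were again called higher and CXCL12 was called lower, and the other 5 members were not called. The counts of 4 higher and 1 lower of 10 compare with 33.9% and 33.7% of all genes. For the same 5 members the libraries did not overlap, against 25.4% of all genes higher and 23.6% lower without overlap. The median log2 fold change of the members was 0.41, against 0.002 over all genes. Both comparisons use the same week 0 libraries.

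Between the treated times, all members that passed the test were higher at week 4. Week 4 exceeded week 1 for 7 of the 10 (CXCL1, CXCL6, CXCL8, CXCL12, CXCL16, CCL2 and CCL7) and was below it for 0, by the same test, against 21.8% of all genes called higher and 18.6% called lower. At an unadjusted p under 0.05 the number of members lower was also 0, as it was by DESeq2 and by limma-voom at an adjusted p under 0.05. For 3 members (CXCL1, CXCL12 and CCL7) week 4 lay above week 1 without overlap and for 0 below it, against 15.3% and 14.9% of all genes. The median log2 fold change was 0.56, against 0.011 over all genes.

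**Figure D3:**
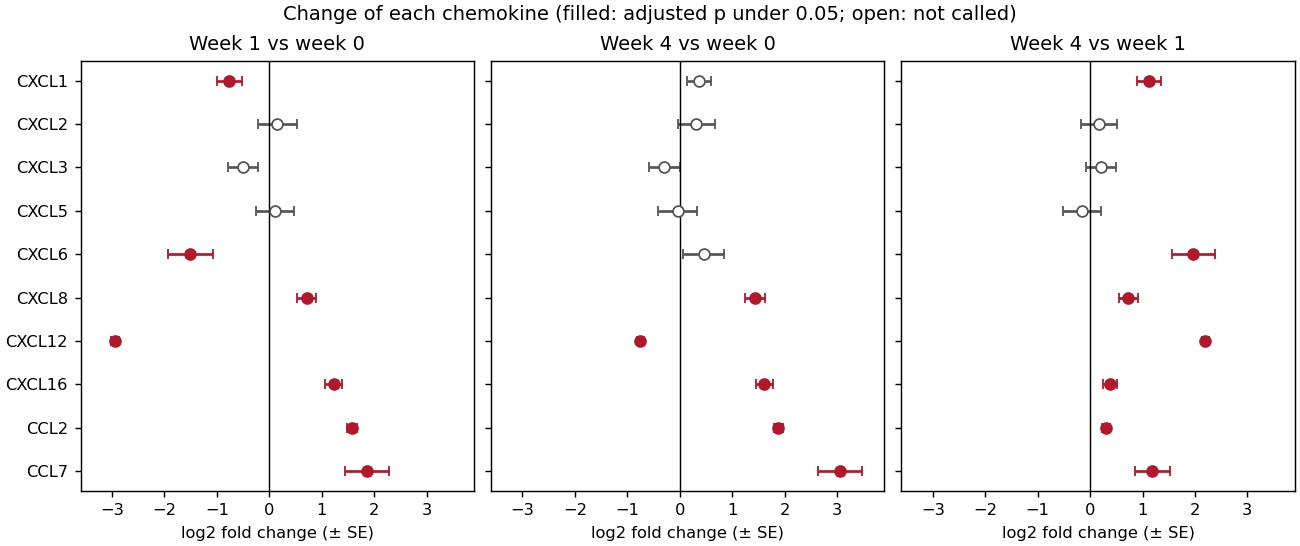
Log2 fold change of each chemokine (horizontal axis, error bars ± SE from the edgeR fit) in the comparisons of week 1 with week 0, week 4 with week 0 and week 4 with week 1. Filled red points passed an adjusted p of 0.05 and open points did not. CXCL12 is far left at week 1 and nearer to 0 at week 4, while CXCL8, CXCL16, CCL2 and CCL7 lie to the right of 0 in all 3 panels.

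CCL2 encodes monocyte chemoattractant protein 1. The 5 week 0 libraries held 19.4, 18.6, 20.4, 17.8 and 18.6 CPM. Week 1 ran from 51.1 over a median of 55.5 to 65.2 CPM, and week 4 from 57.9 over 72.1 to 80.2 CPM. All treated libraries were above all untreated ones, and weeks 1 and 4 overlapped. At week 1 CCL2 averaged 56.7 ± 4.74 CPM (n = 6) against 19.0 ± 0.960 CPM at week 0 (n = 5), a log2 fold change of 1.58 ± 0.09 (SE, adjusted p = 2e-13). At week 4 it averaged 70.0 ± 10.1 CPM, 1.88 ± 0.09 above week 0 on the log2 scale (adjusted p = 1.2e-14) and 0.30 ± 0.08 above week 1 (adjusted p = 0.0032). This was the tightest of the 10 genes in untreated cells, with a coefficient of variation of 5.06%.

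CCL7, its neighbour on chromosome 17 and also a monocyte attractant, rested on few reads, with 2 to 22 counts per library at week 0. Its week 0 values were 0.231, 0.106, 0.0231, 0.0383 and 0.0408 CPM in replicates 1, 3, 4, 5 and 6. Week 1 ran from 0.208 over 0.309 to 0.460 CPM and week 4 from 0.546 over 0.676 to 1.16 CPM. Replicate 1 of week 0 was within the week 1 range, whereas all 6 week 4 libraries were above all others. The rise was 1.86 ± 0.42 on the log2 scale at week 1 (adjusted p = 5.1e-04) and 3.05 ± 0.42 at week 4 (adjusted p = 1.1e-06), with week 4 1.19 ± 0.34 above week 1 (adjusted p = 0.0079). Without week 0 replicates 1 and 4, the rises over week 0 were 2.37 and 3.56 (adjusted p = 2.8e-05 and 8.1e-08). Without replicate 1 alone they were 2.60 and 3.79 (adjusted p = 5.3e-06 and 1.7e-08).

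CXCL8, interleukin 8, was the most abundant ELR chemokine in all 3 groups. Week 0 replicates 1, 3, 4, 5 and 6 held 9.07, 5.54, 7.43, 4.60 and 3.78 CPM, with the highest values in the replicates that also had the larger ribosomal protein share. Week 1 ran from 7.75 over 9.42 to 12.4 CPM and week 4 from 12 over 16.7 to 20.6 CPM. The ranges of neighbouring times overlapped, but week 4 lay wholly above week 0. CXCL8 was 0.71 ± 0.19 higher at week 1 than at week 0 on the log2 scale (adjusted p = 0.0025) and 1.43 ± 0.19 higher at week 4 (adjusted p = 9e-07), and it was 0.73 ± 0.18 higher at week 4 than at week 1 (adjusted p = 0.0022). Without week 0 replicates 1 and 4, the rises over week 0 were 1.09 and 1.82 (adjusted p = 8.7e-06 and 5.2e-09). The part of the ribosomal protein share in the week 0 spread was not tested.

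CXCL1, a neutrophil attractant also known as GRO-alpha, was lower at week 1 than at week 0 and higher at week 4 than at week 1. Week 0 held 1.23, 1.55, 2.39, 1.58 and 1.20 CPM, week 1 ran from 0.394 over 0.955 to 1.34 CPM and week 4 from 1.59 over 1.91 to 2.96 CPM. Week 1 overlapped week 0 in its upper part, and week 4 lay above all of week 1. The log2 fold change was -0.76 ± 0.24 for week 1 against week 0 (adjusted p = 0.0085) and 1.12 ± 0.23 for week 4 against week 1 (adjusted p = 4.6e-04). Week 4 was 0.36 ± 0.23 above week 0, which did not pass (adjusted p = 0.17). It passed without week 0 replicate 4 (0.55, adjusted p = 0.045) but not without week 0 replicates 1 and 4 (0.50, adjusted p = 0.088). Without both, week 1 stood at -0.62 against week 0 (adjusted p = 0.034).

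CXCL6, or granulocyte chemotactic protein 2, was called in the same directions as CXCL1, from 5 to 64 counts per library. Week 0 held 0.126, 0.511, 0.382, 0.403 and 0.184 CPM, week 1 ran from 0.0626 over 0.115 to 0.158 CPM and week 4 from 0.114 over 0.419 to 0.708 CPM. Replicate 1 of week 0 and replicate 4 of week 4 fell within the week 1 range. CXCL6 was -1.51 ± 0.43 on the log2 scale at week 1 against week 0 (adjusted p = 0.0040) and 1.97 ± 0.41 at week 4 against week 1 (adjusted p = 5.8e-04). Against week 0, week 4 stood at 0.46 ± 0.39 (adjusted p = 0.31). Its gene overlaps the pseudogene PPBPP1 on the same strand in GENCODE release 29, so reads of the pair may be mixed.

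CXCL2, CXCL3 and CXCL5, the other neutrophil attractants of the group, were not called in any of the 3 comparisons. CXCL2 had 11 to 42 counts per library and averaged 0.200 ± 0.0509, 0.221 ± 0.0787 and 0.249 ± 0.131 CPM at weeks 0, 1 and 4. CXCL3 averaged 0.558 ± 0.154, 0.397 ± 0.188 and 0.456 ± 0.134 CPM, with 24 to 68 counts. CXCL5 averaged 0.317 ± 0.121, 0.340 ± 0.221 and 0.306 ± 0.104 CPM, with 13 to 68 counts. Their fold changes had standard errors of 0.28 to 0.37 on the log2 scale, so differences of this size would not have been detectable at this depth. CXCL3 at week 1 stood at -0.50 ± 0.29 against week 0 (adjusted p = 0.14), and without week 1 replicate 4, the highest library, at -0.77 (adjusted p = 0.020). CXCL5 at week 1 was spread from 0.182 CPM in replicate 2 to 0.745 CPM in replicate 3.

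The ELR genes, whose promoters held the same NF-kB type letters at similar distances, thus had calls in opposite directions at week 1 (CXCL8 higher, CXCL1 and CXCL6 lower). In their order on chromosome 4, the log2 fold changes at week 4 against week 0 were 1.43 (CXCL8), 0.46 (CXCL6), 0.36 (CXCL1), -0.04 (CXCL5), -0.29 (CXCL3) and 0.32 (CXCL2), of which the first passed the test. At week 1 against week 0 they were 0.71, -1.51, -0.76, 0.11, -0.50 and 0.15 in that order. Between 5.26% and 9.24% of all 50-base runs in the annotated CXCL1, CXCL2 and CXCL3 transcripts occurred in another of the 10 genes, so reads there cannot be assigned with certainty, whereas CXCL5, CXCL6, CXCL8, CXCL12, CXCL16, CCL2 and CCL7 shared none.

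**Figure D4:**
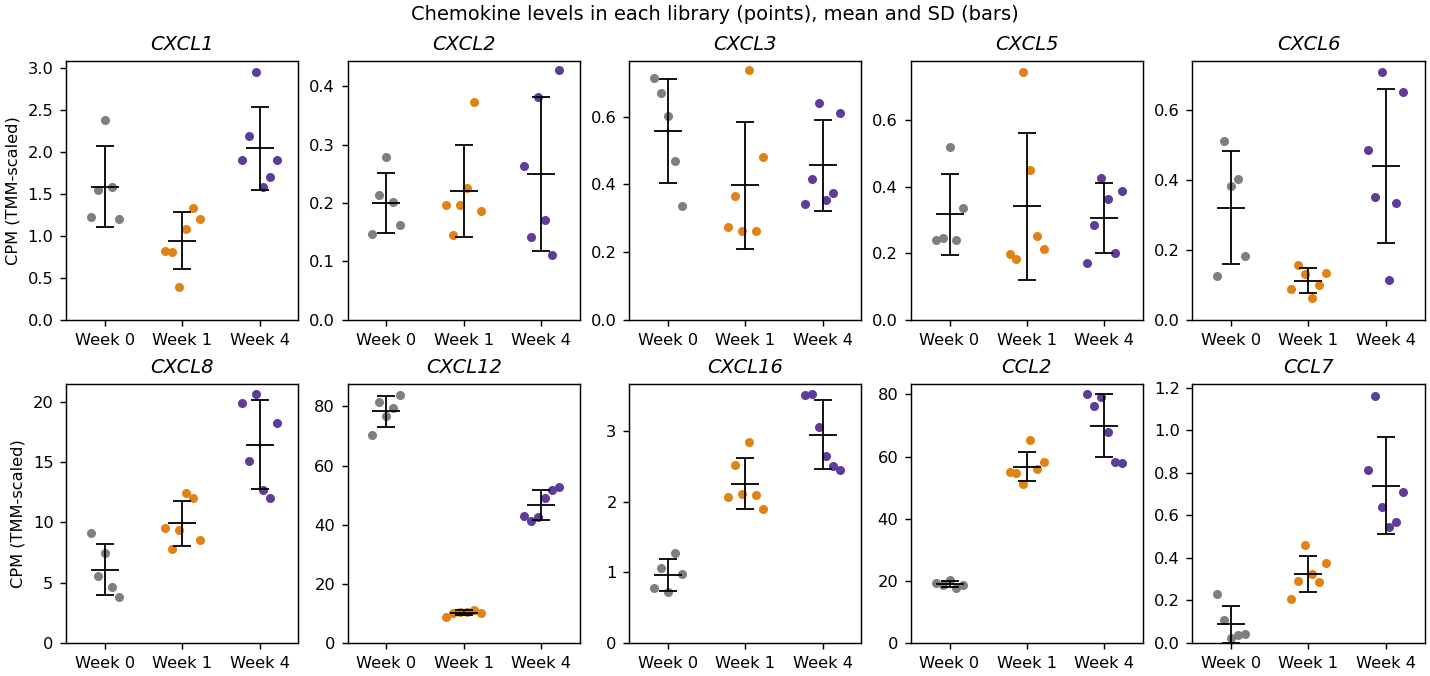
Level of each of the 10 chemokines (vertical axes, CPM on TMM-scaled library sizes, each from 0) in every library of week 0, week 1 and week 4. Points are libraries, wide dashes are means and error bars are SD (n = 5, 6 and 6). The CXCL12 means are 10.2 CPM (week 1) and 46.7 CPM (week 4), below week 0, and CCL2, CCL7, CXCL8 and CXCL16 climb from week 0 to week 4.

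CXCL12, also called stromal cell-derived factor 1, had the largest fall of the members. Week 0 held 70.3, 81.6, 76.9, 79.6 and 83.8 CPM. Week 1 ran from 8.68 over 10.4 to 11.1 CPM and week 4 from 41.4 over 45.9 to 52.8 CPM. The 3 groups did not overlap. CXCL12 averaged 10.2 ± 0.821 CPM at week 1 (n = 6) against 78.4 ± 5.22 CPM at week 0 (n = 5), a log2 fold change of -2.94 ± 0.08 (adjusted p = 4.6e-19). It stood at 46.7 ± 5.00 CPM at week 4 (n = 6), -0.75 ± 0.07 against week 0 (adjusted p = 3.6e-09) and 2.20 ± 0.07 against week 1 (adjusted p = 2.7e-15).

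CXCL16 was a low-level gene that rose at week 1 and stayed up. Week 0 held 0.776, 1.06, 0.717, 1.27 and 0.979 CPM, week 1 ran from 1.90 over 2.11 to 2.85 CPM and week 4 from 2.46 over 2.85 to 3.53 CPM. All treated libraries were above all untreated ones, and weeks 1 and 4 overlapped. The log2 fold change against week 0 was 1.23 ± 0.16 at week 1 (adjusted p = 4.4e-07) and 1.61 ± 0.16 at week 4 (adjusted p = 6.9e-09), and 1.02 and 1.41 without week 0 replicates 1 and 4. The step between week 1 and week 4 was 0.38 ± 0.14 (adjusted p = 0.034). This call was lost under 9 of 24 alternatives, and in 7 of these 9 a single treated library was left out (adjusted p = 0.058 to 0.088). Leaving out other treated libraries kept the call, such as week 1 replicate 4 (0.46, adjusted p = 0.015). Its gene overlaps MED11 on the opposite strand in GENCODE release 29, and no source used here says whether counting used strand, so reads of the pair may be mixed.

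Of 12 tested genes for proteases that act on chemokines, 9 rose and 1 fell at week 1, and 9 rose and 2 fell at week 4, beside the 32.9% to 34.0% of all genes called in each direction. MMP8 had a count of 0 in all week 0 libraries, and MMP9 had 0 to 4 counts per library there. These genes passed the filter through the treated libraries, so the numbers called are no measure of the list. ADAM10 and ADAM17, which release CXCL16 from the cell surface, were both among the proteases that rose at both times. ADAM10 averaged 203 ± 26.0, 238 ± 15.1 and 253 ± 6.95 CPM at weeks 0, 1 and 4. Its week 1 and week 0 libraries overlapped. At week 0, replicates 1 and 4 held 160 and 197 CPM of ADAM10 and the others 211 to 227 CPM. The ADAM10 change without replicates 1 and 4 was not examined. DPP4, a peptidase that trims the amino end of CXCL12 and inactivates it, averaged 116 ± 2.27 CPM at week 1, 111 ± 6.60 CPM at week 4 and, untreated, 40.2 ± 3.53 CPM at week 0 (log2 fold change 1.52 and 1.46, adjusted p = 1.8e-16 and 4.3e-16). ANPEP, aminopeptidase N, rose by 0.69 and 1.28 on the log2 scale and CTSB, cathepsin B, by 0.93 and 0.79 at weeks 1 and 4. MMP3, a stromelysin, was lower at both times (-1.84 and -1.48), and the collagenase MMP1 was lower at week 4 (-0.86, adjusted p = 4.1e-07). Without week 0 replicates 1 and 4, the MMP1 value was -0.56 (adjusted p = 6e-09). Against week 1, week 4 was higher for ANPEP, MMP2 and MMP9 and lower for MMP1 and CTSB.

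Receptors for the members were at or near the limit of detection. CXCR1 and CXCR2, the receptors of the ELR chemokines, had 19 and 65 counts over all 17 libraries together, and CCR2, the receptor of CCL2 and CCL7, had 14. None of these passed the filter. Of 8 receptor genes that passed, edgeR called 5 higher and 0 lower at week 1 and again at week 4, beside 32.9% higher and 34.0% lower of all genes at week 1 and 33.9% and 33.7% at week 4. CXCR4 and ACKR2 had almost no counts at week 0 and passed the filter through the treated libraries, so these counts are no measure of the list. At an unadjusted p under 0.05, 6 were higher and 0 lower at each time. DESeq2 called 6 higher and 0 lower at each time, and limma-voom 5 and 0.

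CXCR4, the signalling receptor of CXCL12, had a count of 0 in all 5 week 0 libraries, 0 to 17 counts per library at week 1 and 10 to 33 at week 4. It averaged 0.0799 ± 0.0623 CPM at week 1 and 0.288 ± 0.0889 CPM at week 4, at least 12.7-fold and 45.9-fold above the floor of 3 counts over the week 0 group (0.00627 CPM). Had each fragment given a pair of counts, the floor would be 6 counts and the bounds at least 6.37-fold and 23.0-fold. CXCR4 passed the test at both times (adjusted p = 1.6e-04 and 1.6e-06), and week 4 was 1.82 ± 0.50 above week 1 on the log2 scale (adjusted p = 0.0071). ACKR3, a scavenging receptor of CXCL12, averaged 0.393 ± 0.141, 0.325 ± 0.132 and 0.384 ± 0.137 CPM at weeks 0, 1 and 4 and was not called. CXCR6, the receptor of CXCL16, averaged 0.175 ± 0.0873, 0.329 ± 0.115 and 0.251 ± 0.118 CPM. At week 1 against week 0 its log2 fold change was 0.89 by edgeR, which did not call it (adjusted p = 0.064), and 0.92 by DESeq2, which did (adjusted p = 0.040).

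Among the other receptors, CCR10, a receptor of CCL28, averaged 0.894 ± 0.0683 CPM at week 1 and 0.886 ± 0.184 CPM at week 4 against 0.365 ± 0.0632 CPM at week 0 (adjusted p = 1.2e-06 and 1.4e-06). CCR7, a homing receptor of lymphocytes and dendritic cells, and ACKR4, a scavenging receptor, were called higher at both times, with log2 fold changes of 1.32 and 1.04 for CCR7 and 1.09 and 1.02 for ACKR4. ACKR2, a scavenger of inflammatory CC chemokines, had 0 to 2 counts per library at week 0, 5 to 15 at week 1 and 8 to 25 at week 4, and was called higher at both treated times (adjusted p = 9e-05 and 2e-05). CCRL2, a chemokine receptor-like protein, averaged 0.130 ± 0.0821, 0.240 ± 0.103 and 0.253 ± 0.131 CPM. At week 4 against week 0 it was not called by edgeR (adjusted p = 0.066) and was called by DESeq2 (adjusted p = 0.048).

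Of 38 other chemokine genes on the list, 36 were in the files and 7 passed the filter, and 13 had a count of 0 in all libraries. Of the 7, 6 were higher and 0 lower at week 1 (32.9% and 34.0% of all genes) and at week 4 (33.9% and 33.7% of all genes), and CCL26, which attracts eosinophils, was not called. At an unadjusted p under 0.05 these counts were the same, and DESeq2 and limma-voom called 0 of them lower. Genes such as CCL20, with no count at week 0, passed the filter through the treated libraries, so these counts are no measure of the list. CXCL10, an interferon-induced attractant of T cells, averaged 1.70 ± 0.525 CPM at week 1 and 2.42 ± 0.585 CPM at week 4 against 0.0868 ± 0.0677 CPM at week 0 (log2 fold change 4.31 ± 0.36 and 4.82 ± 0.36, adjusted p = 3.8e-10 and 5.9e-11). Without week 0 replicates 1 and 4 these were 5.34 and 5.85. CXCL11, its relative, was higher by 3.67 and 3.58 on the log2 scale, over a week 0 level of 0 to 4 counts per library. Without week 0 replicate 5 these were 4.71 and 4.62, so the size of the fold rests on few reads.

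CCL28, a mucosal chemokine, averaged 1.28 ± 0.257 CPM at week 1 and 4.24 ± 0.930 CPM at week 4 against 0.165 ± 0.0655 CPM at week 0 (adjusted p = 2.5e-10 and 7.6e-14). CX3CL1, the membrane-tethered fractalkine, averaged 0.736 ± 0.170 CPM at week 1 and 3.13 ± 0.578 CPM at week 4 against 0.330 ± 0.139 CPM at week 0. CXCL14 rose by 2.66 and 4.12 on the log2 scale. Those 3 genes were also higher at week 4 than at week 1 (log2 fold change 1.73, 2.08 and 1.46). CCL20, an attractant of dendritic cells and Th17 cells, had a count of 0 in every week 0 library and 14 to 52 counts per library at week 1, at least 45.5-fold above the floor of 3 counts over the week 0 group, or at least 22.8-fold above a floor of 6 counts. At week 4 it had 4 to 16 counts per library, below week 1 (log2 fold change -1.38 ± 0.38, adjusted p = 0.0075). CCL26 was likewise lower at week 4 than at week 1 (-1.56 ± 0.50, adjusted p = 0.016).

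**Figure D5:**
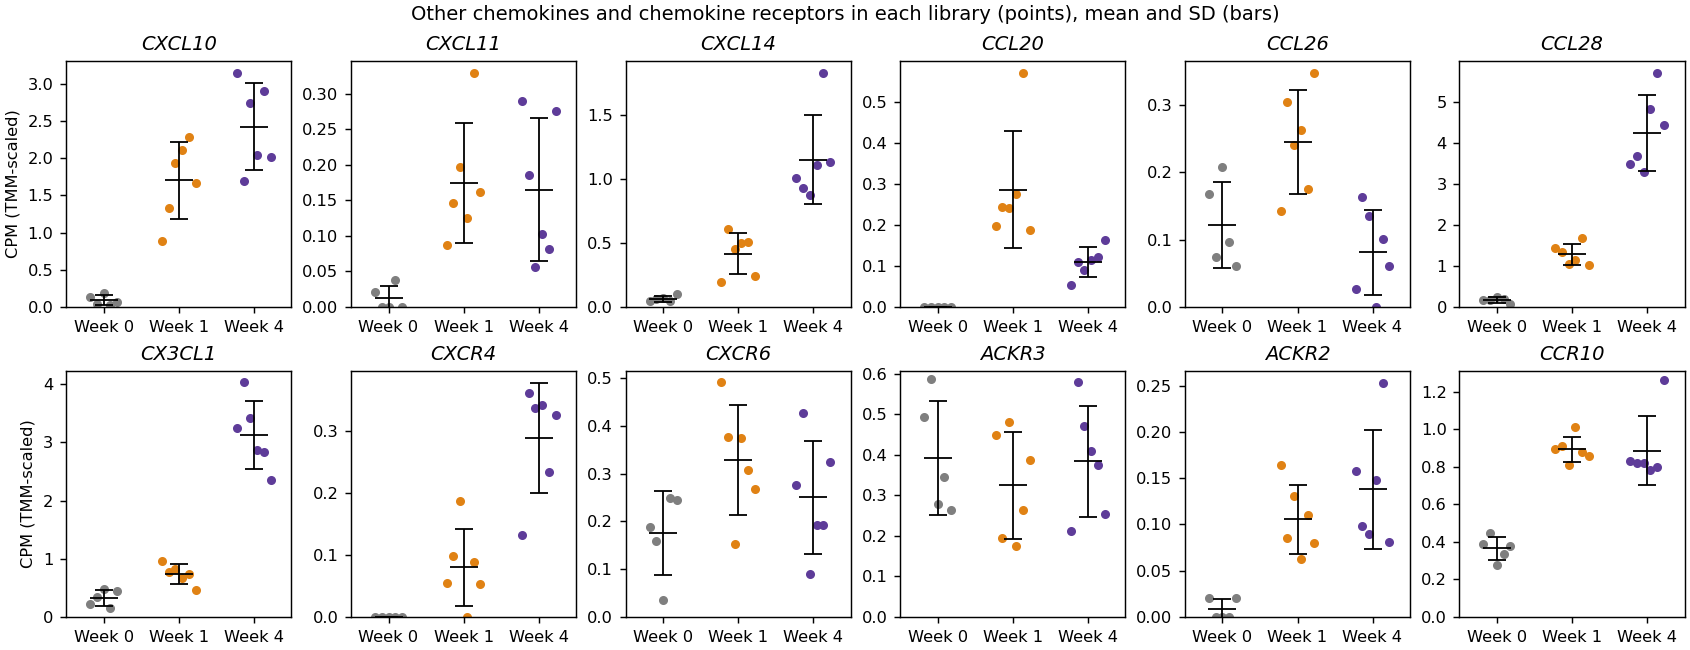
Level of 7 other chemokines and 5 chemokine receptors (vertical axes, CPM on TMM-scaled library sizes, each from 0) in every library of week 0, week 1 and week 4, with mean (wide dash) and SD (error bar). CXCL10, CXCL14, CCL28 and CX3CL1 are near 0 at week 0 and highest on average at week 4, and CCL20 peaks at week 1.

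Genes of the interleukin-1 and NF-kB pathway, which drives several of these chemokines, went both ways. Of 31 tested, 18 rose and 7 fell at week 1, where 32.9% of all genes rose and 34.0% fell. At week 4 against week 0, 15 rose and 8 fell, where the shares of all genes were 33.9% and 33.7%. At week 4 against week 1, 9 rose and 9 fell, where they were 21.8% and 18.6%. TNFAIP3, a feedback inhibitor of NF-kB that is itself a target, averaged 33.4 ± 2.70 CPM at week 1 and 39.2 ± 2.40 CPM at week 4 against 8.21 ± 1.02 CPM at week 0. RELB and NFKB2, subunits of the non-canonical arm, rose by 1.73 and 1.19 on the log2 scale at week 1 and were 1.44 and 1.07 above week 0 at week 4. IRAK3, an inhibitory kinase of the pathway, fell by 1.35 on the log2 scale at week 1 and stood at -0.98 against week 0 at week 4. ZFP36 (tristetraprolin), which hastens the decay of cytokine and chemokine mRNAs, fell by 0.57 and 0.56, and the adaptor TRAF2 by 0.63 and 0.59. CHUK, which encodes a kinase of the IkB kinase complex, stood at -0.46 at week 1 and -0.59 at week 4 against week 0. Between the treated times IL1RAP, IL1R1 and NFKBIA were higher at week 4 (0.68, 0.42 and 0.33) and NFKBIB, IKBKB and IRAK4 were lower (-0.50, -0.28 and -0.48).

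Likeness to the 3 main patterns was measured as the root mean square difference of log2 CPM, each gene centred on its own mean over the 17 libraries, among 10114 genes with a mean of at least 5 CPM. The profile most like CCL2 was that of HLA-B, a class I antigen-presenting molecule (difference 0.138), at 27.9 ± 1.05, 78.0 ± 6.67 and 98.8 ± 9.58 CPM at weeks 0, 1 and 4, followed by TRIB3 (0.153) and PAMR1 (0.154). For CXCL8 the nearest were INHBE, an activin subunit (0.255), LUM, the matrix proteoglycan lumican (0.269), and HILPDA (0.286). LUM stood at 123 ± 33.3, 169 ± 5.27 and 248 ± 13.3 CPM. Its week 0 level was 159 CPM in replicates 1 and 4, and 92.6 to 107 CPM in the other 3 libraries. For CXCL12 they were MYOCD, the smooth muscle coactivator myocardin (0.359), SMAD9, a transducer of BMP signals (0.382), and SAMD11 (0.382). MYOCD stood at 74.0 ± 9.68, 13.7 ± 1.62 and 36.1 ± 7.76 CPM.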

How the data were processed

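Raw counts per gene symbol were deposited by the authors in a file per library, not normalized. Total RNA was column-purified and treated with DNase, per the labels' protocols. HISAT2 2.0.5.2, featureCounts 1.4.6 and the mouse build mm10 are named in the submitters' processing notes. Since the gene symbols are human, it is unclear which build the counts come from. Annotation, strand setting and handling of multiply mapped reads: not given in the sources used here. Of the deposited counts from 1 to 20, 65.6% were even, so some fragments may have been counted as a pair of reads. Gene lengths, listed identically in 4 of the deposited files, were used for RPKM. The entry with no name (0.221% to 0.289% of counts) was left out.

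The test was edgeR 4.0.16's, under R 4.3.3 (filterByExpr, minimum count 10; TMM factors 0.938 to 1.11, quasi-likelihood fit of a mean per group to all 17 libraries, Benjamini-Hochberg adjustment, call under 0.05). The standard error is the log2 fold change over the square root of F. No library pair of a group agreed within sampling noise (chi-square per gene at least 7.38 over 40 pairs). Within week 0 it was 92.4 to 216 between replicates 1 or 4 and replicates 3, 5 or 6. Among replicates 3, 5 and 6 it was 12.2 to 23.4, and between replicates 1 and 4 it was 32.4. The script was tested on simulated data. The members, lists and naming rule were chosen with earlier results of these data known: all members, all other chemokines and receptors that passed the filter, up to 3 rising and 3 falling protease and pathway genes per comparison, and the 3 genes nearest to CXCL8, CCL2 and CXCL12, with a pseudocount of 0.5 CPM. ADAM10 and ADAM17 were named beside these, after its values were seen. Alternatives were RLE factors, DESeq2 1.42.0, limma-voom (limma 3.58.1), no filter, a stricter filter (5 CPM in 5 libraries), the replicate number as a block, the compared groups alone, each library left out, and week 0 replicates 1 and 4 left out. Promoter sequences came from RefSeq and transcripts from GENCODE release 29. Floors cover counting error only, while SD and standard errors include the spread between libraries.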

Additional observations from a re-analysis of the deposited data

Results flagged for a closer look

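CXCL2 in week 1 replicate 5 stood apart from its group, at 0.373 CPM against 0.146 to 0.225 CPM in the other 5 libraries of week 1. The gap to the nearest library was 0.650 of the group's range. This was 1 of 30 sets of values examined (10 genes in 3 groups), and chance flags about 1 in 20. The value rests on 34 counts.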

How the results depend on the processing

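The 25 alternatives left the number of members called within 1.5 times of that reported, except with the stricter filter, which kept 3 of the 10 members among 10450 genes. It then called 2 higher and 1 lower at week 1, 2 higher and 1 lower at week 4 against week 0, and 3 higher and 0 lower at week 4 against week 1. Leaving out each library in turn gave 4 higher and 3 to 4 lower at week 1, 4 to 5 higher and 1 lower at week 4, and 6 to 7 higher and 0 lower between the treated times. Over all genes these fits gave 5337 to 5593 higher and 5552 to 5779 lower, 5513 to 5747 and 5500 to 5716, and 3397 to 3889 and 2821 to 3419 in the same order of comparisons. The sign turned for the uncalled CXCL2 and CXCL5. With single libraries left out, CXCL2 ranged from -0.07 (without week 1 replicate 5) to 0.29 at week 1, and from -0.06 (without week 4 replicate 6) to 0.39 for week 4 against week 1. CXCL5 at week 1 ranged from -0.28 (without week 1 replicate 3) to 0.36, and stood at -0.00 by limma-voom. Against week 0, CXCL5 at week 4 ranged from -0.16 to 0.21, above 0 without week 0 replicate 4 (0.21), week 4 replicate 1 (0.08) or week 4 replicate 5 (0.06), and stood at 0.16 without week 0 replicates 1 and 4. Against week 1 it ranged from -0.28 to 0.24 (without week 1 replicate 3). The cause was not tested. CXCL16 between the treated times was 0.37 without a filter (adjusted p = 0.053) and 0.38 with the replicate block (adjusted p = 0.051). ACKR4 at week 4 missed the threshold without week 0 replicate 3 (0.88, adjusted p = 0.054). Same-numbered libraries deviated together in 1 of 5, 1 of 5 and 1 of 6 pairs (correlation over 0.1). No pairing by number was seen, though such a cut cannot exclude it. With the replicate block 4 members were higher and 3 lower at week 1, 4 and 1 at week 4, and 6 and 0 between the treated times. Low counts limit CXCL2, CXCL3, CXCL5, CXCL6 and CCL7.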

Other observations

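Within week 4, replicates 1, 2 and 3 held more CCL2 (80.2, 76.3 and 79.1 CPM) and more CXCL16 (3.52, 3.53 and 3.06 CPM) than replicates 4, 5 and 6 (67.9, 58.4 and 57.9 CPM of CCL2, and 2.65, 2.51 and 2.46 CPM of CXCL16). CXCL12 was the other way round, at 42.8, 41.4 and 42.7 CPM in replicates 1, 2 and 3 and 49.0, 51.6 and 52.8 CPM in replicates 4, 5 and 6. CXCL8 did not follow this division, with 19.9, 15.1 and 20.6 CPM in replicates 1, 2 and 3 and 12.7, 12 and 18.2 CPM in replicates 4, 5 and 6. This was noticed after the values were seen, and the labels name no batch.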
